A study of Mus musculus with 2 samples.

Results

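Receptor genes of smell and taste were examined among the genomic sites called for KLF6, a DNA-binding regulator with Krüppel-like zinc fingers, by chromatin immunoprecipitation and sequencing (ChIP-seq). A site counted where the gene assigned to it in the deposited lists had a symbol beginning with Olfr, Vmn1r, Vmn2r, V1r, V2r, Tas1r or Tas2r, or a description naming an olfactory, vomeronasal or taste receptor. This gave 39 of 1643 sites (2.37%), 21 in the list of experiment 1 and 18 in the list of experiment 2, assigned to 34 genes. The genes were 28 olfactory receptors, 2 vomeronasal receptors of type 2, 1 of type 1, 2 taste receptors of type 2 and 1 of type 1. Both experiments had 18 of the genes, and only Olfr180 and Olfr1168 had a site in both.

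The cells were a mouse hepatocellular carcinoma (HCC) line transfected with a plasmid encoding KLF6 in its full length, fused to a V5 tag. The 1 ChIP sample was precipitated with an antibody against V5, and the 1 input sample was DNA of such cells without precipitation. Each list compared ChIP with input within an experiment, and experiment 1 joined 2 sequencing runs. Both groups thus carried the KLF6 plasmid, precipitation from cells without the tag was not analysed here, and the labels do not say whether the transfected cells were a pool or a clone. The lists hold no expression values, so neither the liver identity of the line nor expression of any receptor could be checked. Each group had 1 sample and the lists give no value per library, so no difference below could be tested over samples, and the comparisons are descriptions.

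Olfactory receptors are G protein-coupled receptors of the olfactory epithelium, and each sensory neuron typically expresses a single allele of a single receptor gene. Their genes form large clusters along many chromosomes, and the coding sequence usually lies in 1 exon. Vomeronasal receptors detect pheromones in the vomeronasal organ, with the 2 types in different layers of neurons. Taste receptors of type 1 pair up to detect sweet and umami substances, and those of type 2 detect bitter ones. Outside sensory tissue most of these genes are silent. KLF6 is known for binding GC-rich sequence and CACCC elements.

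The summits nearest to a receptor gene start were upstream of Olfr792 and Olfr406, both in experiment 1. The sequences there are shown because these sites lie over the region just before the gene. The site at Olfr792 (ENSMUSG00000057300) spans chr10:128977119-128977755 in the lists' build mm9, from 476 bp before the gene start to 160 bp after it, with 20 tags and a 6.66-fold enrichment. It was the only receptor site that overlapped a gene start. The site at Olfr406 (ENSMUSG00000070375) spans chr11:74082402-74082891, from 491 to 2 bp before the start, with 19 tags at 5.56-fold. The windows below are RefSeq sequences of GRCm38.p6, each from 250 bases before the gene start to 50 bases after it. They were set against the sites by the distance from the gene start, on the assumption that the gene starts at the same base in both builds. On that basis the site at Olfr792 covers all 300 bases and the site at Olfr406 covers 249. Capitals mark the start codon ATG and each TATAAA, on either strand.
Olfr792, chr10:129540289-129540588, plus strand: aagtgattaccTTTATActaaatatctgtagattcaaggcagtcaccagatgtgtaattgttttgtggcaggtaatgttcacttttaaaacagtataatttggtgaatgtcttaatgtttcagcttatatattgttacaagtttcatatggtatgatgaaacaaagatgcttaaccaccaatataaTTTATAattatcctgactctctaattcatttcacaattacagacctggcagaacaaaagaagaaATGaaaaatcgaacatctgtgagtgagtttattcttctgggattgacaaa
Olfr406, chr11:74269141-74269440, plus strand: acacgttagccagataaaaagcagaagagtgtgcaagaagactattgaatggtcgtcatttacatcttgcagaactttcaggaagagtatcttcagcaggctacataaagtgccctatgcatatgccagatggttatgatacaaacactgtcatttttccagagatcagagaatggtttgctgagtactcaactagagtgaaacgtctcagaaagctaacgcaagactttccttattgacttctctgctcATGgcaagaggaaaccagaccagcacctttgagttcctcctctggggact
Neither window held CACCC, which reads GGGTG on the other strand, or the GC box GGGCGG, which reads CCGCCC on the other strand. Matches of CACCC and GGGCGG can share bases at their ends. TATAAA, which appears as TTTATA when it lies on the other strand, was found on that strand of Olfr792 at 2 places, 239 and 64 bp before the start. GC content was 31.0% at Olfr792 and 43.0% at Olfr406.

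RefSeq windows of this kind were at hand for 26 of the 34 genes. Their median GC content was 34.5% (range 24.7 to 56.3), beside 36.0% over 1308 windows of all receptor genes and 52.7% over all 32851 windows. CACCC on either strand was in 6 of the 26 windows (23.1%), against 21.9% of all receptor windows and 57.5% of all windows. GGGCGG was in 0 of the 26, in 0.765% of receptor windows and in 35.7% of all windows. TATAAA was in 9 of the 26 (34.6%), in 39.2% of receptor windows and in 13.6% of all windows. The median GC content at receptor genes with a site was thus near that of their families. ATG stood at the gene start in 76.5% of receptor windows and 5.83% of all windows. The comparisons with all windows therefore set unlike regions side by side. The highest GC content belonged to Tas1r2 (56.3%), whose site lay far away, and the lowest to Olfr1184 (24.7%). These letters describe the windows at gene starts, while most receptor sites lay elsewhere, and the mm9 sequence under the sites was not used here.

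For most of these genes the annotated gene start was a start codon. Gene length in the lists was a multiple of 3 for 25 of the 28 olfactory receptor genes, with a median of 948 bp (range 918 to 1148), and for 37.0% of the 1296 other genes. In RefSeq, ATG stood at the gene start in 22 of the 26 windows (84.6%), in 76.5% of all receptor windows and in 5.83% of all windows. The exceptions among the 26 were Olfr180, Olfr872, Tas1r2 and Vmn2r81. Distances below are therefore mostly, but not always, distances to a start codon. Transcription of olfactory receptor genes often begins at small exons further upstream.

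Olfr180 and Olfr1168 had sites in both lists. At Olfr180 (ENSMUSG00000057987, minus strand, 58915512 to 58916465 on chromosome 16), experiment 1 had a site at chr16:58913103-58913787 with 32 tags at 11.8-fold. Experiment 2 had one at chr16:58913279-58913583 with 13 tags at 17.5-fold. The fold enrichment is the authors' value for a site over the background that their caller expected, and the tag count is not normalised. The summits lay 9 bp apart, 2945 and 2954 bp from the gene start, beyond the end of the gene by 1992 and 2001 bp. The site of experiment 1 had a false discovery rate (FDR) of 77.1%, the only one below 100% among the 39.

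At Olfr1168 (ENSMUSG00000061342, plus strand, 88025036 to 88025974 on chromosome 2), experiment 1 had a site at chr2:88027756-88028479 with 28 tags at 10.5-fold. Experiment 2 had one at chr2:88027968-88028225 with 11 tags at 15.9-fold. The summits were 58 bp apart and lay 2105 and 2163 bp past the gene end. At both genes the whole site of experiment 2 lay inside the wider site of experiment 1, of which it made up 44.5% at Olfr180 and 35.6% at Olfr1168. The fold of experiment 2 was 1.49 times that of experiment 1 at Olfr180 and 1.51 times at Olfr1168, and each was the highest or second highest receptor fold of its list. Folds of the lists are on separate scales, with medians over all sites of 7.17 and 10.0.

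**Figure D1:**
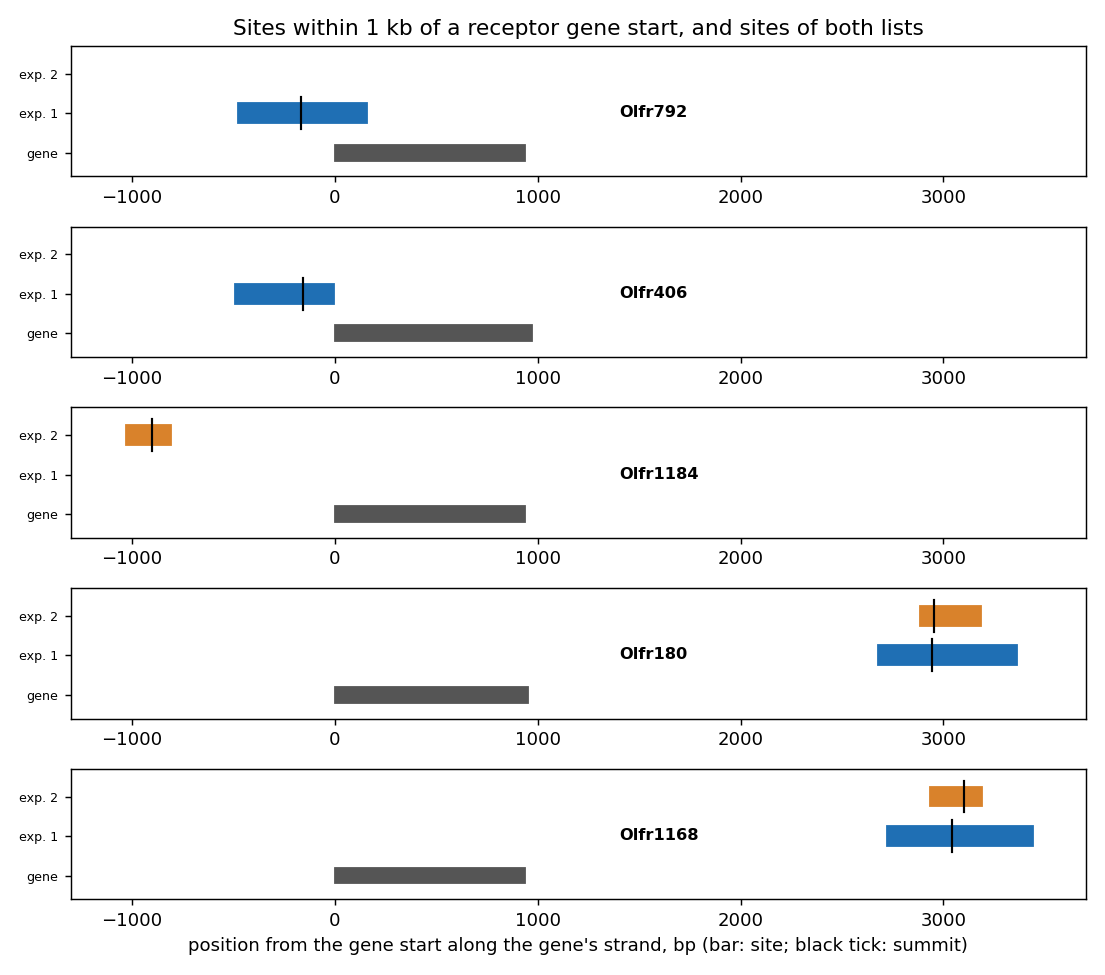
Sites at 5 olfactory receptor genes, drawn along the gene's strand in bp from the gene start (grey bar: gene; blue bar: site of experiment 1; orange bar: site of experiment 2; black tick: summit). In experiment 1, Olfr792 has a site over its gene start and Olfr406 has one just before the gene. Olfr1184 has a site of experiment 2 with its summit 899 bp before the gene. The paired sites of Olfr180 and Olfr1168 lie past the gene end with summits 9 and 58 bp apart.

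The other receptor sites were found in 1 list each. Shared sites made up 2 of 21 in experiment 1 (9.52%, exact Clopper-Pearson 95% interval 1.17 to 30.4) and 2 of 18 in experiment 2 (11.1%, interval 1.38 to 34.7). Over all sites the shares were 14.7% and 12.4%, inside both intervals. These intervals cover counting error only, and the read depth of the libraries is unknown. The 19 unshared sites of experiment 1 had their nearest summit of experiment 2 at a median of 1480 kb, and none closer than the 30.4 kb at Olfr406. The 16 unshared sites of experiment 2 had a median of 362 kb and a minimum of 119 kb, at Olfr1494. Over all unshared sites the medians were 973 and 1350 kb. Some unshared sites were each other's nearest across the lists, 274 kb apart for Tas2r120 and Tas2r129 and 425 kb apart for Olfr143 and Olfr918.

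The strength of receptor sites was set against all sites of their list. In experiment 1 the receptor folds ran from 3.29 to 11.8 with a median of 6.23. Of the 21, 5 were above the median of all sites (23.8%, exact interval 8.22 to 47.2). Over all sites the share was 49.3%, above this interval. In experiment 2 the receptor folds ran from 7.35 to 17.5 with a median of 11.1. Of the 18, 11 were above the median of all sites (61.1%, exact interval 35.7 to 82.7). Over all sites the share was 49.4%, inside this interval. The receptor intervals of the 2 experiments overlap, and a difference between the experiments was not tested. The score, which is −log10 of the p-value multiplied by 10, had a median of 56.4 in experiment 1 and 55.1 in experiment 2, beside 58.3 and 55.7 over all sites. Scores above the list median belonged to 8 of 21 receptor sites in experiment 1 and 9 of 18 in experiment 2. None of the 39 was among the 50 highest scores of its list (exact upper bounds 16.1% and 18.5%). Of all sites 6.74% and 5.55% were, inside both bounds, so this 0 says little about receptor sites. Among the 100 highest were 0 of 21 in experiment 1, where all sites have a share of 13.5%, and 3 of 18 in experiment 2 (16.7%, exact interval 3.58 to 41.4), where it is 11.1%. The best ranks by score were 144 of 742 for Olfr180 in experiment 1, and 75, 76 and 94 of 901 for Olfr180, Olfr100 and Olfr1232 in experiment 2. Of the 21 receptor sites of experiment 1, 1 had an FDR below 100% (4.76%, exact interval 0.12 to 23.8), against 21.3% of all sites. Of the 18 of experiment 2 it was 0 (exact upper bound 18.5%), against 3.22% of all sites.

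The highest receptor folds after the shared pair came from different families. In experiment 1 they were 7.99 at Tas2r120, a bitter taste receptor gene, and 7.33 at Olfr773 (chr10:128635403-128635981, 22 tags) and at 1 of the sites of Olfr136 (chr17:38839598-38840116, 17 tags). In experiment 2 Olfr1232 reached 14.3 (chr2:89162511-89162792, 12 tags). Olfr1184 (chr2:88325863-88326082, 9 tags), Vmn2r81 (10 tags) and Tas2r129 (12 tags) had 12.7 each. Such values rest on few reads. Tags had a median of 22 (range 16 to 80) in experiment 1 and 11 (range 9 to 13) in experiment 2. The background behind each fold is not given, and it cannot be derived from the tags because their library is not stated. The lowest fold, 3.29 at Olfr136, went with the most tags, 80 over 2024 bp.

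**Figure D2:**
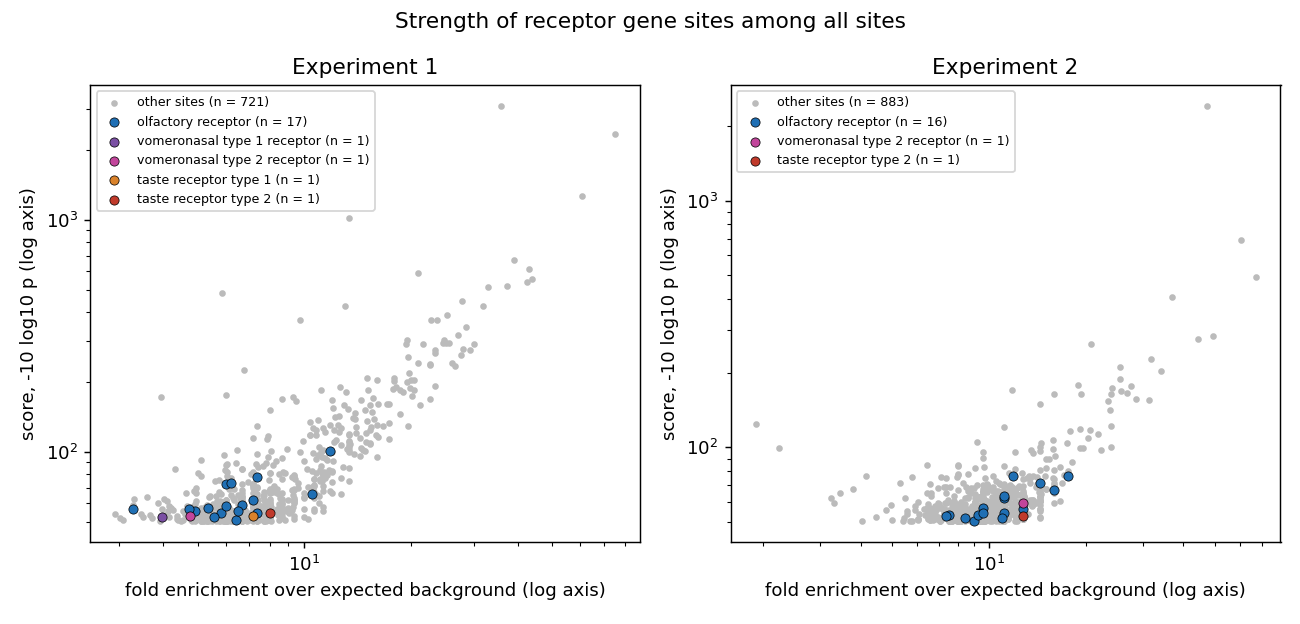
Fold enrichment (x, log axis) against score (y, log axis) for each site of experiment 1 (left) and experiment 2 (right), with receptor sites coloured by family and other sites in grey. The receptor scores have medians of 56.4 and 55.1, beside 58.3 and 55.7 over all sites, with Olfr180 at 11.8-fold and 17.5-fold the furthest right among the receptor sites of each list.

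No receptor site lay inside its assigned gene, in 21 sites of experiment 1 (exact upper bound 16.1%) or 18 of experiment 2 (18.5%). Over all sites, 13.3% and 18.4% lay inside. Receptor genes are short, with a median length of 948 bp over the 34 genes against 5591.5 bp over other genes, and the part of length in this was not tested. Of the 37 distinct receptor sites, 23 were downstream of the gene, 13 upstream and 1, at Olfr792, over the gene start. By list, 14 of 21 (66.7%, exact interval 43.0 to 85.4) and 11 of 18 (61.1%, interval 35.7 to 82.7) were downstream. Over all sites the shares were 36.5% and 34.7%, below both intervals but close to the lower bound in experiment 2. The 14 of experiment 1 include several sites of a single gene, Olfr136. The downstream sites had their summits between 248 bp and 367 kb past the gene end, with a median of 4330 bp.

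Many receptor sites had their summit 5 kb or less from the gene start. They were 9 of 21 in experiment 1 (42.9%, exact interval 21.8 to 66.0) and 12 of 18 in experiment 2 (66.7%, interval 41.0 to 86.7). Over all sites the shares were 11.7% and 10.7%, below both intervals. Within 1 kb the counts were 2 of 21 (9.52%, interval 1.17 to 30.4) and 1 of 18 (5.56%, interval 0.141 to 27.3). Over all sites the shares within 1 kb were 3.91% and 1.78%, inside these intervals. The median distance was 7.24 kb in experiment 1 and 3.56 kb in experiment 2, against 53.6 and 50.4 kb over all sites. Counting shared sites once, 19 of 37 receptor sites lay within 5 kb (51.4%, interval 34.4 to 68.1) and 142 of 1494 other sites did (9.5%, interval 8.06 to 11.1). Of the 19, 11 were downstream of the gene, 7 upstream and 1 over the start.

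The lists assign a site to the gene with the nearest start, and receptor genes stand in clusters. In the order of genes in RefSeq, 28 of 32 placed receptor genes with a site had at least 5 receptor genes among their 10 nearest neighbours (median 8, range 0 to 10). Olfr267 and Tas1r2 had 0. Neighbours were not counted for receptor genes without a site, so these counts cannot be read as a trait of those with one. Other genes of the same length as the olfactory receptors, 918 to 1148 bp, were assigned to 18 other sites of experiment 1 and 24 of experiment 2. Of these sites, 3 and 4 lay within 5 kb, which is 16.7% in each list and rests on few sites. The median distances of all sites at these genes were 54.9 and 47.6 kb. The parts of clustering and of gene length in the short distances were not tested.

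**Figure D3:**
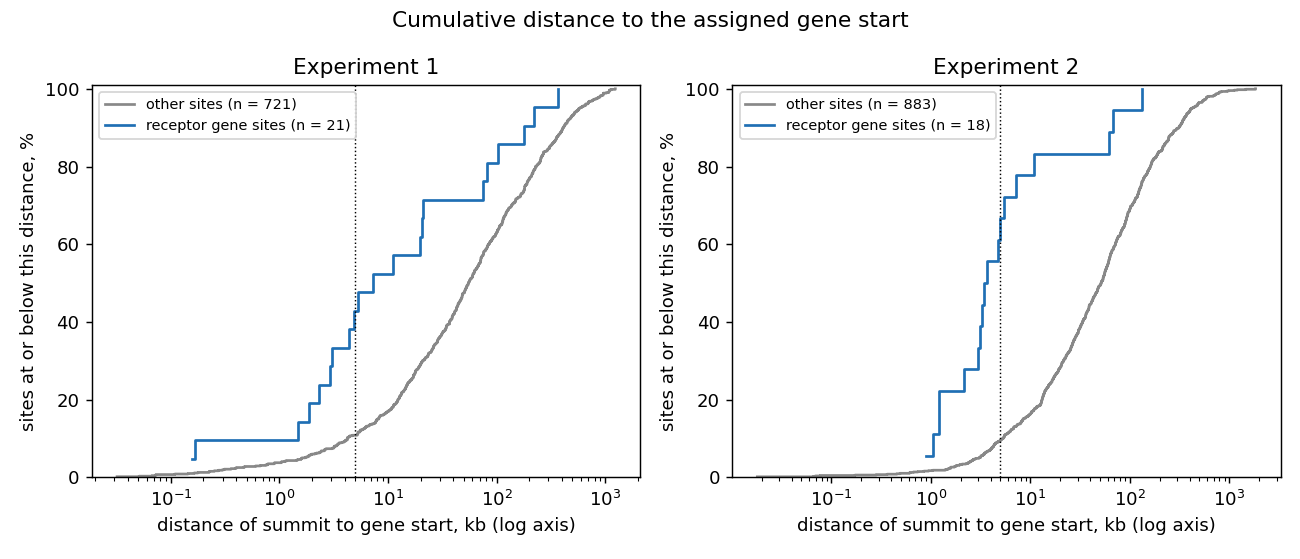
Share of sites (y, percent) at or below a given distance of the summit to the gene start (x, kb, log axis) for receptor sites in blue and other sites in grey, with a dotted line at 5 kb. At that line the blue curve stands at 42.9% in experiment 1 and 66.7% in experiment 2.

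Among the olfactory receptors, which bind odorants, the sites within 5 kb were spread over 17 genes. Besides the genes named above, the upstream ones of experiment 1 included Olfr207 (1472 bp before the start, 4.93-fold). Downstream ones of that list were Olfr706 (1885 bp from the start, 6.4-fold), Olfr815 (2336 bp, 6.52-fold) and Olfr825 (4397 bp, 6.0-fold), the last of which was identified by its description alone. In experiment 2 the site of Olfr1184 lay 899 bp before the start, that of Olfr1281 3305 bp (11.2-fold) and that of Olfr554 3433 bp (7.35-fold). The closest sites past a gene end were those of Olfr1494 (1195 bp from the start and 248 bp past the end, 8.4-fold) and Olfr100 (1199 bp and 273 bp, 11.9-fold). Olfr143 (2152 bp, 7.53-fold), Olfr1232 (3682 bp), Olfr1320 (4758 bp, 8.97-fold) and Olfr1461 (4992 bp, 9.56-fold) completed the group. The site of Olfr1461 is the last inside 5 kb and that of Olfr824 (5277 bp, 7.17-fold) the first outside.

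Further away, between 5 and 20 kb, were the sites of Olfr824, Olfr118 (5419 bp, 9.56-fold), Olfr139 (7153 bp, 11.1-fold), Olfr918 (7235 bp, 5.35-fold), Olfr441 (10847 bp, 9.27-fold) and Olfr773 (11226 bp). Olfr872 and Olfr1089 lay 20.4 and 21.1 kb from their sites (5.83-fold and 6.0-fold in experiment 1), and Olfr267 62.4 kb (11.2-fold in experiment 2). Beyond 100 kb lay 1 site of Olfr1505 (133 kb downstream, 11.0-fold in experiment 2) and 4 sites of Olfr136. Olfr136 was the only receptor gene with more than 1 site in a list. Its sites, all of experiment 1, were 102, 180, 223 and 368 kb downstream on chromosome 17, at 6.23, 4.73, 3.29 and 7.33-fold. Of its 10 nearest neighbours in RefSeq, 5 were receptor genes.

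The vomeronasal receptors had 3 sites. Vmn2r112, of the family with a large extracellular domain, had a site 4884 bp upstream on chromosome 17 (chr17:22735036-22735791, 31 tags, 4.76-fold, experiment 1). Vmn2r81 had one 67.3 kb upstream on chromosome 10 (chr10:78643026-78643276, 10 tags, 12.7-fold, experiment 2). V1rc33, listed as Vmn1r27 in RefSeq, had one 82.3 kb downstream on chromosome 6 (chr6:58083433-58084418, 35 tags, 3.98-fold, experiment 1). The folds of the pair in experiment 1 were below that list's receptor median of 6.23.

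The taste receptors also had 3 sites. Tas1r2, a subunit of the sweet receptor, had a site 75.4 kb downstream on chromosome 4 (chr4:139284704-139285134, 16 tags, 7.17-fold, experiment 1). The bitter receptor genes Tas2r120 and Tas2r129 both lie in the cluster on chromosome 6. The site of Tas2r120 was 19.6 kb downstream (chr6:132626269-132626786, 17 tags, 7.99-fold, experiment 1), and that of Tas2r129 1057 bp upstream (chr6:132899833-132900256, 12 tags, 12.7-fold, experiment 2). All 6 vomeronasal and taste receptor sites had an FDR of 100% and were unshared. Over all sites of experiments 1 and 2, 21.3% and 3.22% had an FDR below 100%. Shared sites were 14.7% and 12.4%, so these counts over 6 sites say little about the 2 families.

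**Figure D4:**
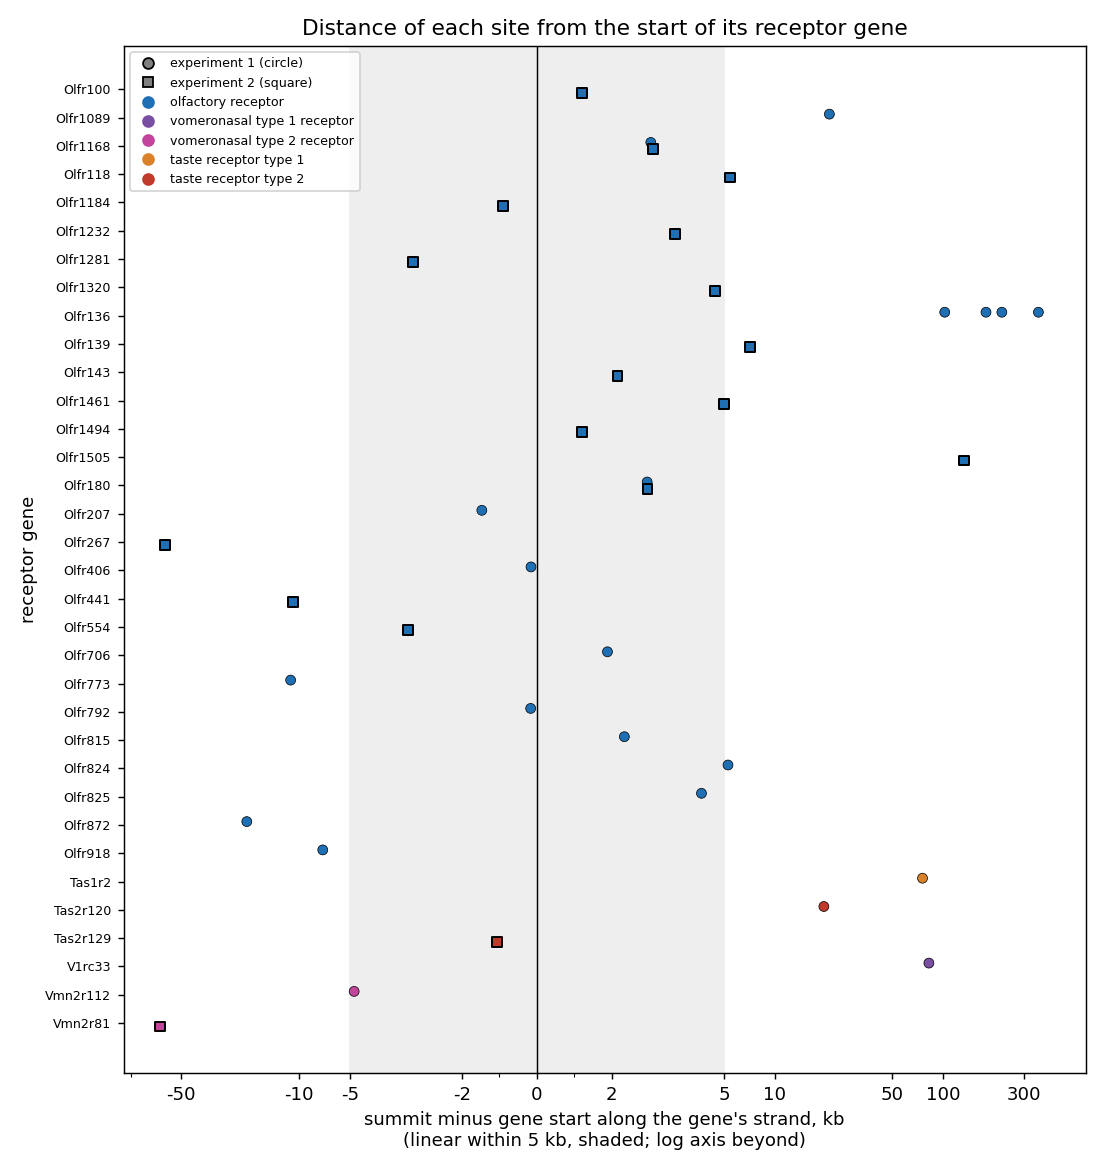
Signed distance of the summit from the gene start along the gene's strand (x, kb, linear within the shaded 5 kb and log beyond) for each of the 34 receptor genes (y), with circles for experiment 1, squares for experiment 2 and colours for families. Of 37 distinct sites, 19 fall in the shaded band, and 1 circle of Olfr136, at 368 kb, lies furthest right.

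The number of receptor genes with a site was then set against the size of the families. RefSeq (GRCm38.p6) lists 1428 olfactory receptor genes, of which 27 had a site (1.89%). Olfr207 did not match the table. Of the 376 vomeronasal type 1 genes 1 had a site (0.266%), of the 272 of type 2 it was 2 (0.735%), of the 40 taste receptors of type 2 it was 2 (5.0%), and of the 3 of type 1 it was 1. Many of these entries are pseudogenes. Among the protein-coding ones, 33 of 1505 receptor genes (2.19%) and 27 of 1110 olfactory receptors (2.43%) had a site, near the 537 of 21896 protein-coding genes of all kinds (2.45%). Read against that share, the count is no result about receptor genes. These shares count genes that the lists name by symbol, and Olfr825. A symbol was missing for 58.6% of all sites in experiment 1 and 57.4% in experiment 2, against 4.76% and 0.0% of receptor sites. The share over all protein-coding genes may therefore be too low, and by more than that of receptor genes. Of all sites, 27.9% in experiment 1 and 25.3% in experiment 2 had no description, so receptor genes among them would be missed.

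Receptor sites fell on 11 of the 20 chromosomes with sites, 9 of them in both lists. Chromosome 10 had 5 olfactory receptor genes with a site, Olfr773, Olfr792, Olfr815, Olfr824 and Olfr825, all in experiment 1 and at 6.0 to 7.33-fold. They were 6.25% of the 80 olfactory receptor genes that RefSeq places there, beside 1.89% of those over the genome. Experiment 2 had no site at these genes, and its nearest summits were 7210 to 8170 kb away. Over all sites, 14.7% of experiment 1 and 12.4% of experiment 2 overlapped the other list. Absence from 1 list therefore says little for so few sites, here and on the chromosomes below. Chromosome 2, with 377 olfactory receptor genes, had 5 with a site (1.33%), Olfr1089 and Olfr1168 in experiment 1 and Olfr1168, Olfr1184, Olfr1232 and Olfr1281 in experiment 2. Chromosome 7 has the most receptor genes, 576, of which Olfr554 and Olfr706 had a site. Of sites of any kind, the lists held 23 and 21 there.

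Chromosome 6 had 4 receptor genes with a site, V1rc33 and Tas2r120 in experiment 1 and Olfr441 and Tas2r129 in experiment 2. RefSeq places 171 receptor genes there, among them 84 vomeronasal type 1 genes, 38 taste receptors of type 2 and 36 olfactory receptors. Chromosome 17 had 7 receptor sites at Olfr100, Olfr118, Olfr136 and Vmn2r112. The olfactory receptor genes there include a cluster linked to the major histocompatibility complex. Olfr100 and Olfr118 had sites in experiment 2 alone and Olfr136 and Vmn2r112 in experiment 1 alone. Chromosome 19 had sites at Olfr1461, Olfr1494 and Olfr1505, all in experiment 2, and chromosome 9 at Olfr872 and Olfr918 in experiment 1 and Olfr143 in experiment 2. Chromosome 13, with 75 vomeronasal type 1 genes among 105 receptor genes, had none. Over the genome 1.56% of receptor genes and 0.266% of vomeronasal type 1 genes had a site, so this count says little.

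**Figure D5:**
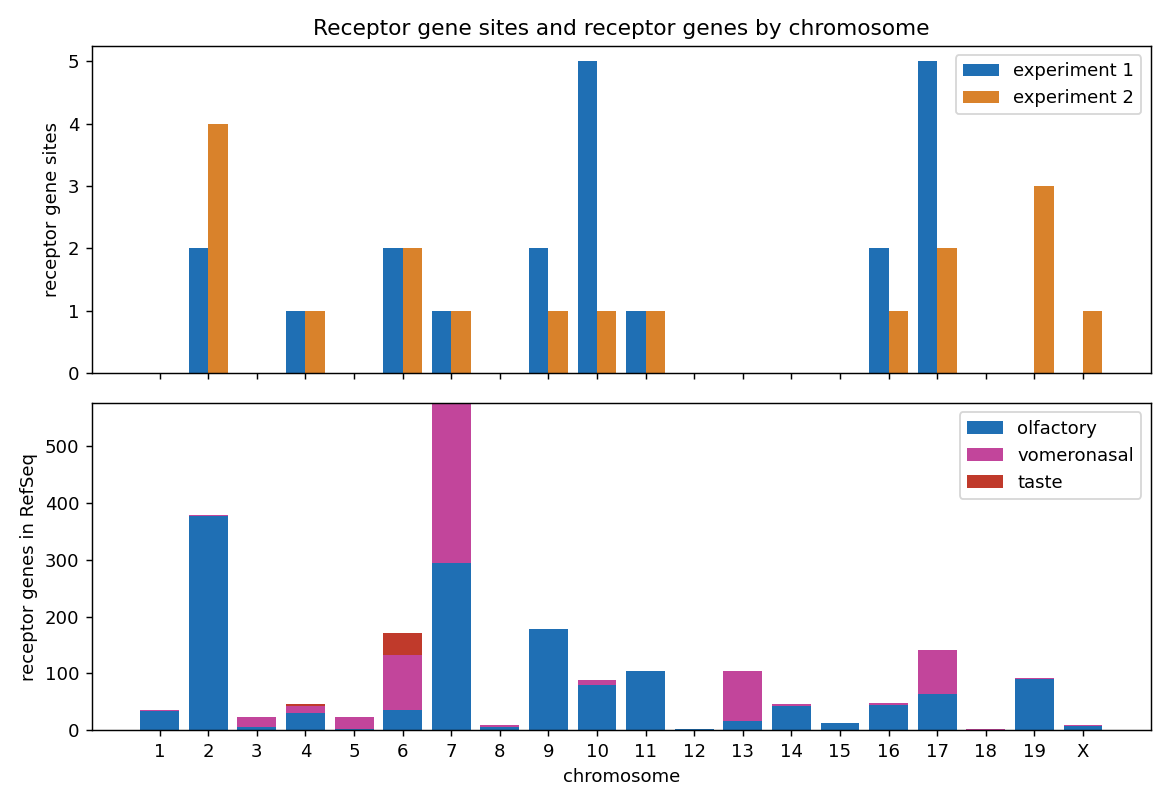
Receptor sites per chromosome in experiment 1 (blue) and experiment 2 (orange) in the upper panel, and receptor genes per chromosome in RefSeq, stacked by olfactory, vomeronasal and taste families, in the lower panel. Chromosomes 10 and 17 have 5 sites each in experiment 1, and chromosome 7 has 1 site in each list beside 576 receptor genes.

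Other genes of chemical sensing were counted by 5 lists of 89 distinct genes. None of the 21 genes of olfactory signal transduction, which include Gnal, Adcy3 and Cnga2 (the G protein, cyclase and channel of the odorant response), had a site with that symbol. Nor did the 14 genes tied to receptor choice, such as Lhx2 and Ebf1, the 8 of vomeronasal transduction, such as the channel gene Trpc2, or the 13 of taste transduction, such as Trpm5. Of 35 other chemoreceptor genes, the trace amine, formyl peptide, guanylyl cyclase and Ms4a families, 1 had a site. With a share of 2.45% over all protein-coding genes, lists of this size would hold few or no such genes, so the counts of 0 say little about them. The gene with a site was Ms4a6c, with a site inside the gene 0.851 kb from the start (chr19:11544717-11545253, 20 tags, 6.57-fold, FDR 100%, experiment 2).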

How the data were processed

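The values are those of 2 lists of sites, 1 per experiment, that the authors deposited from KLF6-ChIP against input DNA. The submitters' processing notes name MACS 1.3.6 and build mm9, with no role given. No aligner is named: it is not given in the sources used here. The deposited tag count of a site is a whole number, from a library that is not stated. Per the file headers, the score is −log10 of a p-value multiplied by 10. The deposited fold enrichment is a ratio and the FDR a percent, again per the file headers. Depth per sample is unknown.

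Members and gene lists were chosen with earlier results of these data known. Every receptor gene with a site was named, with full values for shared sites, sites within 1 kb of the gene start and the 5 highest folds of each list. Chromosomes were described where at least 3 receptor genes had a site, and chromosomes 7 and 13 were added after their counts were seen. Sites were shared where at least 1 bp overlapped. Python 3.11.15, pandas 2.3.3 and scipy 1.17.1 gave counts, medians and exact intervals. The functions were tested on simulated lists. RefSeq tables of GRCm38.p6 gave names, gene order and sequences at gene starts. Synonyms were used for names. Alternatives varied the membership rule, the score, the distance and the overlap.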

Additional observations from a re-analysis of the deposited data

How the results depend on the processing

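Of 28 alternatives, 21 kept counts within 1.5 times or shares within the 95% interval, and 7 moved. With the higher-scoring 50% of sites, 8 receptor sites were left in experiment 1, 9 in experiment 2 and 15 genes in either list, as fewer sites imply. With an overlap of at least 50% required of both sites, 0 receptor sites were shared, since those of experiment 1 are wider. The share near gene starts was 8.11% within 1 kb, as the narrower window implies. Leaving out an experiment, 18 genes remained in either case, against 34 in both together, and the share within 5 kb ranged from 42.9% without experiment 2 to 66.7% without experiment 1. No paired analysis was possible because the lists hold no values per library and each group had 1 sample. Depth is unknown, so absence from a list was not set against it.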
